A study of Mus musculus with 12 samples.

Results

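Of the 7025 back-splice junctions listed for mouse hippocampus, 230 carried no gene name in the authors' table, which is 3.27% of the list. A back-splice junction joins the end of an exon to the start of the same or an earlier exon, and it is the mark by which circular RNA is recognised. The 230 were chosen by that empty annotation alone and by no measured value. The other 6795 junctions, which carried the name of 1 of 2947 host genes, served as the comparison. Each junction is an interval between the joined positions in mm9 coordinates, printed here as deposited, since the table does not say whether its starts count from 0 or 1. Where an interval is placed between genes below, these are the hosts of the nearest named junctions on either side. The limits of the genes were not used, and such an interval may lie inside either gene or another one.

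Most circular RNA known in brain arises from exons of protein-coding genes, by splicing that runs backwards around a loop of pre-mRNA. A smaller amount arises from long noncoding transcripts, whose exons are often missing from older gene annotations. Circular RNA has no free ends, resists the exonuclease RNase R and is abundant in neurons.

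The junctions were measured in RNA from the hippocampus of 7-month-old 5xFAD mice and 7-month-old wild-type (WT) mice, in 3 libraries each with the title prefix AT. 5xFAD mice carry human transgenes, APP being one, that bear mutations found in families with early Alzheimer's disease, under the Thy1 promoter, so that expression is mainly neuronal. The design text names a preparation with RNase R and A-tailing for circular RNA, and the labels do not spell out the prefixes. In such bulk RNA, fewer cells of a type and less RNA per cell cannot be told apart. Nothing in the labels states that each library is a different animal, and the spread behind every p-value below may therefore be technical in whole or in part.

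The table gives a signal per junction and library that is read count divided by a factor of the library, and whole reads could be recovered from it. The libraries held 191408, 683540 and 659414 junction reads in 5xFAD, against 438790, 695539 and 695528 in WT. Replicate 1 of each genotype was the shallowest of its group, and 1 read was worth a signal of 0.866 in 5xFAD replicate 1 and 0.374 in WT replicate 1, against 0.226 to 0.239 in the other 4 libraries. Markers of hippocampal neurons were detected in all 6 companion libraries of gene expression from the same tissue (title prefix CG, summed level of 5 genes 171 to 193 FPKM), as were those of the other brain cell types looked for. The summed level of 3 choroid plexus markers set a pair of these libraries apart, at 484 FPKM in 5xFAD replicate 3 and 2811 FPKM in WT replicate 1, against 40.2 to 69.7 in the other 4, and its part in the levels of locus genes below was not tested. In those companion libraries the one labelled 5xFAD replicate 3 had 305 FPKM of Thy1, the gene whose promoter drives the transgenes, against 1136 and 1172 in the other 5xFAD libraries and 296 to 340 in WT, which goes against its label. Whether AT replicate 3 came from the same animal is not stated. The count of junctions with a small p-value and the summed signals that change without it are given below both ways.

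The intervals with no gene named were shorter than the named ones, and the largest excess lay among the very short. Their median length was 4626 bases (quartiles 1084 and 18990), against 9642 bases (quartiles 3488.5 and 23543) for named junctions. Intervals under 1 kb made up 57 of 230 (24.8%), against 611 of 6795 named junctions (8.99%), and intervals under 500 bases made up 36 (15.7%) against 272 (4.00%). At the other end the shares were closer, with 10 unnamed intervals (4.35%) and 203 named intervals (2.99%) above 100 kb. These shares are over all listed junctions and were described without a test.

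**Figure D1:**
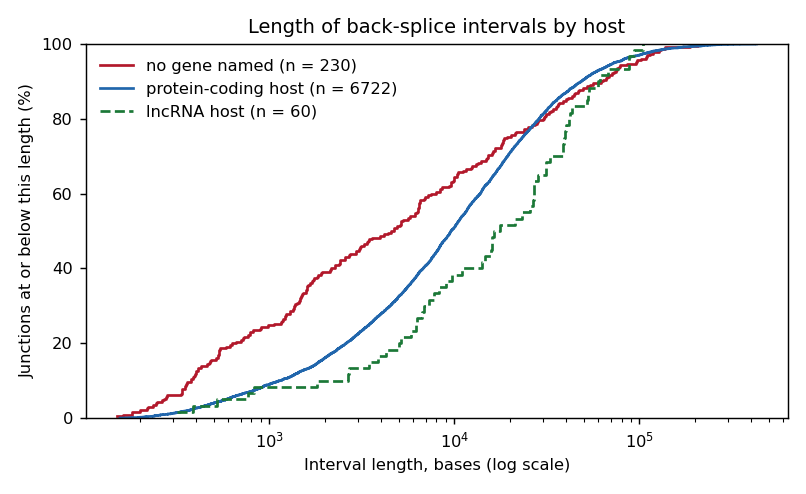
Cumulative percent of junctions against interval length in bases (log axis) for junctions with no gene named (red), junctions of protein-coding hosts (blue) and junctions of long noncoding RNA hosts (green, dashed). The red line lies above the blue line over the short and middle lengths: 24.8% of the unnamed intervals are under 1 kb against 8.99% of all named ones. It lies below the blue line at 100 kb, with 4.35% of unnamed and 2.96% of protein-coding host intervals longer than that.

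The extremes show the range. The shortest were chr14:51427174-51427325 (151 bases, mm9), chr5:8622623-8622784 (161 bases) and chr15:98635474-98635655 (181 bases) with mean signals of 3.32, 2.17 and 3.38. The longest were chr5:44983971-45190676 (206705 bases), between junctions of Ldb2 and Lcorl, chr11:36771372-36959142 (187770 bases), which overlaps junctions of Tenm2, a neuronal adhesion protein, and chr6:21325848-21463214 (137366 bases), between Cttnbp2 and Tspan12. The 60 junctions of long noncoding RNA hosts named in the table (33 genes, by RefSeq gene type) had a median length of 17033.5 bases, longer than the unnamed and the coding junctions, and 5 of them (8.33%) were under 1 kb.

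The unnamed junctions were also less abundant. The mean signal over the 6 libraries had a median of 5.96 (quartiles 3.85 and 12.7, range 1.84 to 337), against 8.39 (quartiles 4.81 and 18.2, maximum 2722) for named junctions. The median was lower than that of named junctions in 6 of 6 libraries. In reads, the median unnamed junction had 8, 25 and 26 reads in the 5xFAD libraries and 16, 25.5 and 25.5 in the WT libraries, against 9, 35 and 34 and then 23, 36 and 36 for named junctions. A mean signal above 50 was reached by 13 of 230 (5.65%), against 604 named junctions (8.89%). Long noncoding hosts had a median signal of 6.12, close to the unnamed junctions.

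Taken over a library, the 230 junctions held 2.25%, 2.20% and 2.18% of the junction signal in the 5xFAD libraries and 2.24%, 2.12% and 2.33% in the WT libraries. The groups averaged 2.21% ± 0.0333 in 5xFAD and 2.23% ± 0.105 in WT (SD, n = 3 each), and the 5xFAD values lay inside the WT range. The exact 95% binomial interval of the shallowest library, 5xFAD replicate 1, ran from 2.18% to 2.31%, which covers counting error only. The signal was concentrated, with 9.46% of it on 1 junction, 36.8% on the 10 most abundant, and 20 junctions enough to reach the midpoint of the total. Intervals under 1 kb held 29.7% of the unnamed signal, against 10.6% of the named signal for named intervals of that length.

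The most abundant junction with no gene named was chr18:65811213-65816286 (mm9, 5073 bases), which ranked 41 among all 7025 by mean signal. It lies between named junctions of Zfp532, a zinc finger protein, 26225 bases from one and 26262 from the other. Its signal was 272, 330 and 295 in the 5xFAD libraries, against 428, 314 and 385 in the WT libraries. The groups overlap, and the log2 difference on the log2(signal + 1) scale was -0.32 (SE 0.26, limma adjusted p = 0.923). A pair of weaker unnamed intervals with the same end, chr18:65803846-65816286 and chr18:65798403-65816286, had mean signals of 42.2 and 39.7.

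Next came chr5:37573319-37585543, between Ppp2r2c, a phosphatase subunit, and Crmp1, a protein of axon guidance. It had signals of 188, 155 and 215 in 5xFAD and 210, 168 and 184 in WT, which cover the same range. The third, chr2:158208239-158208899, is 660 bases long and lies between junctions of Rprd1b and Ralgapb. RefSeq lists 18 genes between those hosts, among them Snhg11, a noncoding host gene of small nucleolar RNA. Whether the junction lies in any of these genes was not tested. The signal of this junction was 39.0, 293 and 155 in 5xFAD and 131, 115 and 83.3 in WT. The 5xFAD libraries hold both the lowest and the highest value, and the 7.53-fold range over the 6 libraries was the widest among the 10 most abundant.

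The smallest range in that set, 1.28-fold, was that of chr7:98774838-98775323, 485 bases long. The nearest named junction on one side, of Picalm, an adaptor of clathrin-mediated endocytosis, was 1429308 bases away. On the other side it was that of Dlg2, a scaffold of the postsynaptic density, at 413984 bases. The unnamed junction had 108, 96.3 and 124 in 5xFAD and 109, 99.8 and 104 in WT, with the WT values inside the 5xFAD range. Single libraries set the values of several others. The junction chr3:75162268-75201023, between Gm20754 and Golim4, had 78.0, 96.5 and 94.4 in 5xFAD and 63.2, 75.4 and 240 in WT, with WT replicate 3 far above the rest. The junction chr4:124233287-124234627, between Macf1 and Utp11l, had 210, 87.0 and 58.8 in 5xFAD and 116, 107 and 63.6 in WT, with 5xFAD replicate 1 the highest.

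The remaining members of the 10 most abundant were chr12:110956323-110956709 between Rian and Mirg, chr8:126920152-126920484 between Galnt2 and Disc1, chr10:31914087-31934200 between Ncoa7 and Nkain2, and chr1:126529941-126535716 between Dpp10 and Actr3. The largest genotype difference of the 10 was that of the chromosome 10 junction, with 108, 64.2 and 92.5 in 5xFAD and 73.3, 43.5 and 65.0 in WT. The lowest 5xFAD value lies between the WT values, and the log2 difference was 0.54 (SE 0.34, limma adjusted p = 0.918). The groups overlapped in all 10, where over the whole list 11.1% of junctions had groups that did not overlap, and 4 of the 10 were under 1 kb.

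**Figure D2:**
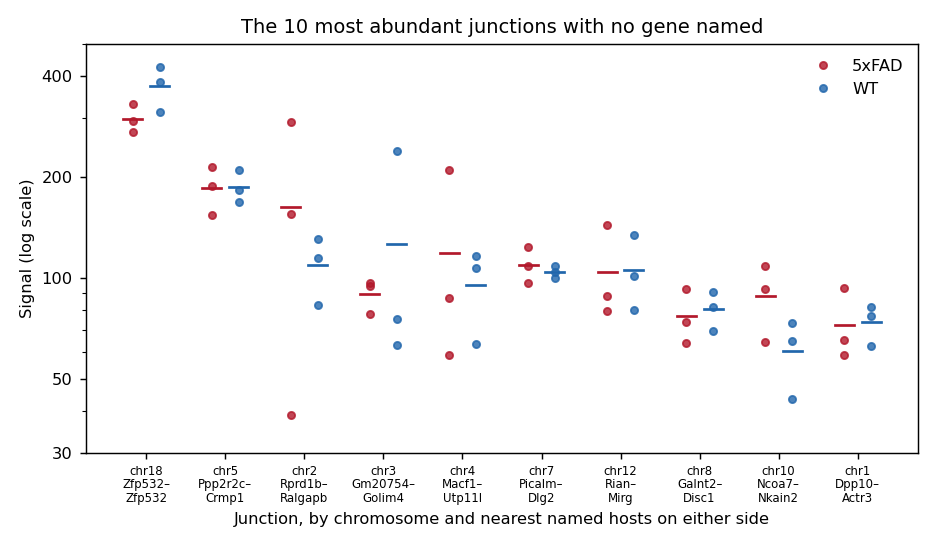
Signal per library (log axis) of the 10 most abundant junctions with no gene named, ordered by mean, with 5xFAD (red) left of WT (blue) for each junction and a bar at the mean of 3 libraries. The points of the groups overlap in every junction shown, and the chromosome 2 junction ranges from 39.0 to 293 within 5xFAD.

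Unnamed junctions lay on all 20 chromosomes that hold named ones, in unequal shares. Chromosome 7 had the highest share, with 29 of 389 listed junctions (7.46%), followed by chromosome 10 with 19 of 333 (5.71%). Chromosome 2 had the lowest, with 7 of 608 (1.15%). The count on chromosome 7 came from 1 stretch: outside it, 7 of 363 junctions on the chromosome (1.93%) had no gene named, which is below the share over the whole list.

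**Figure D3:**
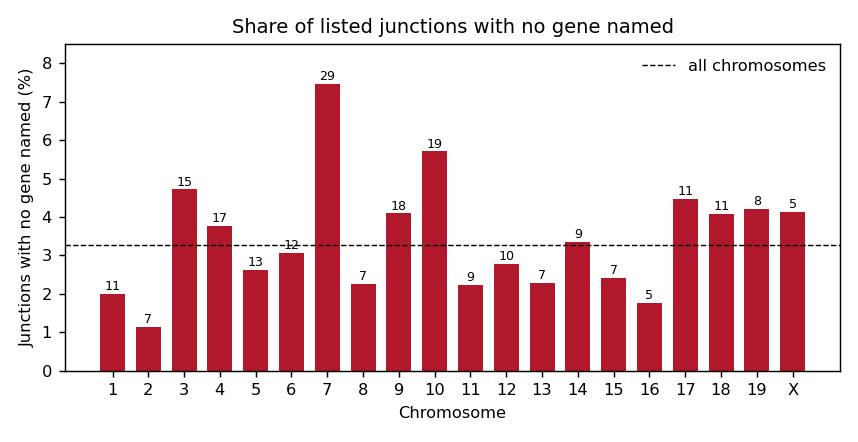
Percent of the listed junctions on each chromosome that had no gene named, with the number of unnamed junctions above each bar and a dashed line at the share over all chromosomes (3.27%). Chromosome 7 stands highest at 7.46% and chromosome 2 lowest at 1.15%.

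That stretch, picked out after the positions were seen, runs past Ube3a to Otud7a and takes in part of the mouse counterpart of the region lost in Prader-Willi and Angelman syndromes. Ube3a, a ubiquitin ligase, is expressed in neurons mainly from the maternal copy. The paternal copy gives a very long transcript, noncoding over most of its length, that holds Snrpn, Ipw and arrays of small nucleolar RNA. The region held 22 unnamed junctions, 21 of them between the Ube3a and Otud7a junctions and 1 on the other side of Ube3a. Its named junctions were 1 of Ube3a, 1 of Ipw and 2 of A230057D06Rik. Between Ube3a and Ipw, RefSeq (in another mouse assembly, used for gene order only) lists 139 genes, of which 137 are small nucleolar RNAs. Between Ipw and A230057D06Rik it lists 98, of which 72 are small nucleolar RNAs, and Snrpn is among the rest. These counts leave out genes that reach past either host. Snhg14, a noncoding host gene of small nucleolar RNA, is listed only for the wider stretch from Ube3a to A230057D06Rik. Whether the unnamed junctions lie in Snhg14 was not tested.

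The junctions of the stretch were long, unlike the unnamed set as a whole. They ran from 353 to 130215 bases with a median of 43660, and 12 of the 22 exceeded 40 kb. Their median signal was 6.14, against 5.96 for all 230. Without them the median length of the other unnamed junctions was 3511.5 bases and the median signal 5.87. In the companion libraries the linear genes of the region differed widely in level, with Snrpn at 326, 313 and 315 FPKM in 5xFAD and 346, 326 and 327 FPKM in WT, and Ipw at 150, 112 and 104 FPKM in 5xFAD and 170, 129 and 112 FPKM in WT. Snhg14 had 32.12, 42.65 and 41.38 FPKM in 5xFAD and 32.91, 47.81 and 42.04 FPKM in WT. A230057D06Rik was low, at 4.74, 4.01 and 5.57 FPKM in 5xFAD and 5.70, 5.00 and 5.39 FPKM in WT.

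Several intervals of the stretch abut. The interval chr7:67816756-67930661 (113905 bases) and chr7:67887584-67930661 (43077 bases) share an end, which overlaps the start of chr7:67930523-68001190 by 138 bases, and the end of that one overlaps the start of chr7:68000987-68047598 by 203 bases. Overlaps of exon size between neighbours, set here at under 500 bases, occurred in 10 pairs among the unnamed junctions. They ran from 82 to 436 bases with a median of 138 and involved 17 junctions. An overlap of 160 bases on chromosome 4 and the one of 138 bases on chromosome 7 each entered more than 1 pair, because the earlier intervals share an end. Such overlaps were not counted among named junctions. In such a pair the last bases of one interval are the first bases of the next. Near Ipw, chr7:66928727-67024841, chr7:66931987-67017246, chr7:66941400-67050135 and chr7:67047445-67050135 form a chain in which each overlaps at least 1 other, and the second starts 133 bases after the end of the Ipw junction.

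The most abundant junction between Ipw and A230057D06Rik was chr7:68278820-68342739 (63919 bases). It had signals of 37.2, 50.2 and 38.2 in the 5xFAD libraries, against 56.1, 57.0 and 61.5 in the WT libraries. All WT values exceed all 5xFAD values, and the log2 difference was -0.48 (SE 0.33, limma unadjusted p = 0.171). In the authors' deposited table the same junction has an adjusted p of 0.0109. Summed over the 22 junctions, the signal was 204, 206 and 222 in 5xFAD (211 ± 9.59, SD, n = 3) and 245, 215 and 235 in WT (232 ± 15.2, SD, n = 3), with 5xFAD replicate 3 above WT replicate 2. Without 5xFAD replicate 3, the 5xFAD sums of 204 and 206 lay below all WT sums, and this was not tested. The sums include chr7:68278820-68342739, which alone averaged 41.9 in 5xFAD and 58.2 in WT. Of the 22, 10 had a positive and 12 a negative difference, and 0 had an unadjusted p under 0.05.

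**Figure D4:**
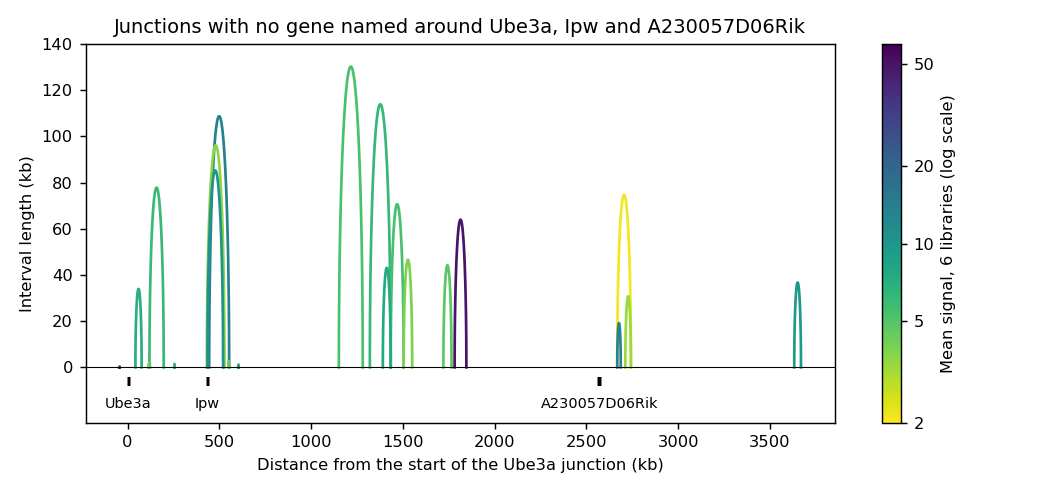
Unnamed junctions of the chromosome 7 stretch drawn as arcs from their start to their end, in kb from the start of the Ube3a junction; height is interval length in kb, colour is mean signal over 6 libraries (log scale), and black bars, drawn at a minimum width, mark the named junctions. The arcs group around Ipw and in the gap before A230057D06Rik, where the darkest long arc has a mean signal of 50.04.

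A second imprinted region, the Dlk1-Dio3 domain of chromosome 12, held 2 unnamed junctions between Rian and Mirg, noncoding transcripts that carry small nucleolar RNAs and microRNAs. RefSeq places 64 genes between those hosts, 43 of them microRNAs and 19 small nucleolar RNAs. The short junction chr12:110956323-110956709 (386 bases) had 144, 79.5 and 88.2 in 5xFAD and 101, 80.2 and 134 in WT, and the groups overlap. Its mean of 105 compares with a highest mean of 20.7 for the 2 Rian junctions and 4.83 for the Mirg junction in the table. The other, chr12:110967976-110968698, averaged 2.93.

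Most unnamed junctions lay away from any named junction. An overlap with a named interval was found for 25 (10.9%), and for 18 of these it covered at least 50% of the unnamed interval. Of the 205 with no overlap, the nearest named junction was within 20 kb for 15, between 20 and 100 kb for 47 and beyond 100 kb for 143, among them 16 beyond 1 Mb, and the median distance was 240466 bases. The 25 that overlapped were longer (median 26250 bases) and slightly weaker (median signal 5.08) than the 205 that did not (3423 bases, 6.05). The span between junctions of a single host contained 24 of the 230. For 7 the nearest named junctions on both sides belonged to 1 gene, among them Zfp532 (3 junctions), Epha5, a receptor of axon guidance, Pkp4, a plakophilin of cell junctions, and Mlip.

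A start or end position was shared exactly with a named junction by 17 of the 230, from 14 host genes, so that the same position appeared both with and without a gene. The hosts were Zeb1, Foxp1 and Hivep2, which are transcription factors, Hdac4, a histone deacetylase, Elf2, Tenm2, Erc2, Magi2, Dlgap1, Ahcyl2, Mlip, Eif4e3, Gltscr1l and 6530403H02Rik. In 13 of the 17 the unnamed junction was weaker than its strongest named partner, with a median ratio of 0.210. An example is chr6:99378782-99406574, with a mean signal of 2.15 beside 69.7 for a Foxp1 junction with the same end.

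In the other 4 the unnamed junction was stronger than every named partner that shares its start or end, and the highest ratio was that of chr14:29130434-29197229 (66795 bases), which shares its end with 2 junctions of Erc2, a protein of the presynaptic active zone. Its signal was 65.8, 28.9 and 37.5 in 5xFAD and 61.7, 34.4 and 43.0 in WT, with replicate 1 highest in both groups. Its mean of 45.2 was 8.72 times that of the stronger of those Erc2 junctions (5.19).

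Positions were also shared within the unnamed set, by 76 of the 230 with another unnamed junction. With named and unnamed partners together, 85 (37.0%) shared a start or end with some other listed junction, against 3756 named junctions (55.3%). Joined by overlap, the 230 fell into 177 loci, of which 141 held 1 junction and 36 held more, with 89 junctions in the 36. Junctions in loci of several were longer (median 13960 bases) and more abundant (median signal 7.21) than those alone (1906 bases, 5.34).

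The largest locus, on chromosome 4 between Oma1, a mitochondrial protease, and Dab1, the adaptor of reelin signalling, held 5 junctions. Its main member, chr4:103606721-103606965, is 244 bases long and had 69.3, 15.1 and 21.3 in 5xFAD and 21.0, 31.0 and 30.2 in WT, with 5xFAD replicate 1 far above the others. The other 4 (chr4:103606721-103624598, chr4:103621334-103631298, chr4:103624438-103631298 and chr4:103621334-103624598) averaged between 2.79 and 4.67. They reuse the same few starts and ends.

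A locus of 4 on chromosome 19, beyond Cacul1, combined 2 starts that are 28 bases apart with 2 ends, and all 4 combinations were listed. The one with the highest mean, chr19:60734763-60741168, had 9.53, 14.7 and 20.8 in 5xFAD, against 37.0, 23.7 and 50.3 in WT. All WT values exceed all 5xFAD values, and the log2 difference was -1.25 (SE 0.45, unadjusted p = 0.0156, limma adjusted p = 0.778). The junction of the other start to the other end, chr19:60734791-60751398, had 0.866, 3.16 and 2.39 in 5xFAD and 12, 4.56 and 8.65 in WT. The groups are apart here too, with a log2 difference of -1.57 (SE 0.65, limma adjusted p = 0.793). This junction was listed through WT alone, a limit described below.

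The remaining combinations of that locus did not separate. For chr19:60734763-60751398 the signals were 16.5, 4.75 and 19.4 in 5xFAD and 6.36, 10.9 and 18.0 in WT, and for chr19:60734791-60741168 they were 11.3, 8.13 and 16.0 in 5xFAD and 12, 10.7 and 15.2 in WT. As a share of the locus, chr19:60734763-60741168 held 25%, 47.8% and 35.5% in 5xFAD and 55.0%, 47.5% and 54.6% in WT, with 5xFAD replicate 2 just above WT replicate 2. The locus summed to 38.1, 30.7 and 58.6 in 5xFAD (42.5 ± 14.4, SD, n = 3) and 67.4, 49.9 and 92.2 in WT (69.8 ± 21.2, SD, n = 3), which overlap. Without 5xFAD replicate 3, the 5xFAD sums of 38.1 and 30.7 lay below all WT sums, and this was not tested. The sums include chr19:60734763-60741168, which alone averaged 15.0 in 5xFAD and 37.0 in WT.

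Close alternative starts also occurred at the locus between Macf1, a linker of the cytoskeleton, and Utp11l. There chr4:124233263-124234627 starts 24 bases before the abundant chr4:124233287-124234627 and ends with it. Its signal was 59.8, 29.1 and 14.1 in 5xFAD and 43.8, 29.9 and 25.5 in WT, with replicate 1 highest in both groups, as it was for the stronger junction. Between Camk2d, a calcium-dependent kinase, and Alpk1, 3 junctions combined 2 starts with 2 ends. The strongest, chr3:126749642-126760009, had 43.3, 25.1 and 43.5 in 5xFAD and 19.5, 29.2 and 43.0 in WT, and the groups overlap. The one that spans both, chr3:126741664-126760009, had 14.7, 17.9 and 30.1 in 5xFAD and 28.1, 37.4 and 24.6 in WT, which overlap too.

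No unnamed junction passed the test between 5xFAD and WT. limma, fitted on all 7025 junctions with Benjamini-Hochberg adjustment, called 0 of 230 at an adjusted p under 0.05, and 0% of all junctions passed, with a smallest adjusted p of 0.549 among the unnamed. At an unadjusted p under 0.05, 15 of 230 (6.52%; 5 higher and 10 lower in 5xFAD) stood against 5.68% of all junctions (2.51% higher and 3.17% lower), so the share was near the background. On the recovered reads, edgeR called 0 of 230 with 8 at an unadjusted p under 0.05, and DESeq2 called 0 with 12. The count of 15 was 9 without 5xFAD replicate 3 and 7 without WT replicate 3. The median SE of the log2 difference was 0.62 over the unnamed junctions and 0.61 over the named ones, and the median size of the difference was 0.42 and 0.41, below that error.

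The median log2 difference was -0.03 over the unnamed junctions and -0.06 over the named ones, with 108 of 230 (47.0%) and 3104 of 6795 (45.7%) above 0. The sign of these medians is not stable, since both were above 0 with edgeR and DESeq2 (0.02 to 0.05). The groups did not overlap for 34 of 230 (14.8%; 13 higher and 21 lower in 5xFAD), against 11.1% of all junctions (4.43% higher and 6.65% lower).

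How junctions were chosen for the list may bear on these counts, and its part in them was not tested. Every listed junction had a signal of 2.03 or more in each of the 3 libraries of 5xFAD, or in each of the 3 of WT. This minimum was read from the listed values, since the authors' rule is not stated in the sources used here. A junction that reached it in 1 group alone, called here listed through that group alone, had to be lower in some library of the other. Of the 230, 124 reached the minimum in both groups, 50 in 5xFAD alone and 56 in WT alone, and 12 of the 15 with an unadjusted p under 0.05 were listed through 1 group alone. Among the 124, the groups did not overlap for 17 (13.7%; 6 higher and 11 lower in 5xFAD), against 6.93% of the 4199 junctions of that kind. Of the unnamed junctions listed through 5xFAD alone, the groups did not overlap for 14.0%, against 15.4% of all junctions of that kind. Through WT alone the shares were 17.9% and 18.9%. The differences between these shares were not tested.

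**Figure D5:**
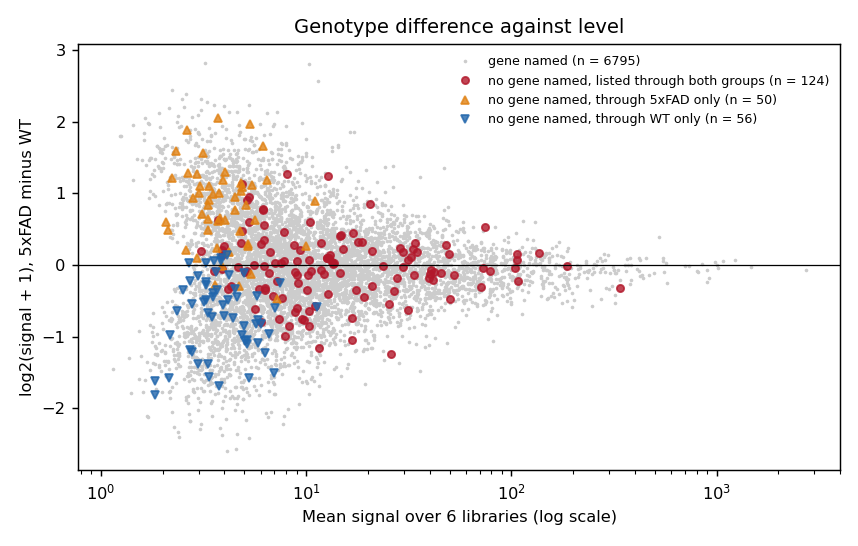
Difference between 5xFAD and WT on the log2(signal + 1) scale against mean signal over 6 libraries (log axis), for named junctions (grey) and for unnamed junctions listed through both groups (red circles), through 5xFAD alone (orange triangles) or through WT alone (blue triangles). The unnamed junctions lie within the grey cloud, and those listed through 1 group alone sit at low signal with differences mostly towards that group.

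Of the 10 unnamed junctions with the smallest p in each direction (5 higher and 5 lower), 9 had mean signals of 1.84 to 5.34, and chr19:60734763-60741168, described above, had 26.01. The lowest p on the lower side was that of chr15:37298111-37298293 (182 bases), between Rgs22 and Ncald, with 0, 0.904 and 0 in 5xFAD and 2.99, 2.96 and 4.21 in WT. The groups are apart, at 0, 4 and 0 reads in 5xFAD and 8, 13 and 18 reads in WT (log2 difference -1.81, SE 0.50, unadjusted p = 0.00295, limma adjusted p = 0.549). Next was chr11:36771372-36959142 at Tenm2, with 0, 0.678 and 0.478 in 5xFAD and 3.37, 2.05 and 4.44 in WT (log2 difference -1.62, SE 0.51, limma adjusted p = 0.708). The others on this side were chr6:99378782-99406574 at Foxp1 (-1.58), chr4:119544641-119545547 between Foxj3 and Scmh1 (-1.69) and the chromosome 19 junction above. All on this side except the chromosome 19 junction were listed through WT alone.

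On the higher side, chr4:21952266-21967535, between Faxc and Fbxl4, had 4.33, 5.65 and 3.59 in 5xFAD and 0, 2.28 and 0 in WT. The groups are apart, with a log2 difference of 1.88 (SE 0.60, limma adjusted p = 0.716). The junction chr17:64583798-64584326, between the tyrosine kinase gene Fer and Pja2, had 10.4, 4.75 and 3.82 in 5xFAD and 0, 3.42 and 0 in WT, a difference of 2.05 (SE 0.69, limma adjusted p = 0.716). The remaining 3 were chr10:81831315-81863731 between Gna11 and Hcfc2 (1.60), chr9:109954426-109956026 between Map4 and Smarcc1 (1.96) and chr3:126741664-126751198 between Camk2d and Alpk1 (1.57). All 5 were listed through 5xFAD alone.

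The 3 junctions with an unadjusted p under 0.05 that were listed through both groups were all lower in 5xFAD without overlap. Beside chr19:60734763-60741168 they were chr3:120472076-120502665, which shares its end with a junction of 6530403H02Rik, with 7.80, 17.6 and 7.65 in 5xFAD and 26.6, 21.0 and 19.4 in WT (log2 difference -1.04, SE 0.48, limma adjusted p = 0.870), and chr4:101861220-101867679, between Dnajc6 and Pde4b, with 6.93, 4.75 and 8.13 in 5xFAD and 9.73, 17.8 and 22.0 in WT (-1.16, SE 0.54, limma adjusted p = 0.870). The last 2 were named after their values were seen.

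Among the 6 that were higher in 5xFAD without overlap and listed through both groups, also named after their values were seen, the most abundant lay between junctions of Pkp4. That junction, chr2:59137685-59138037 (352 bases), had 36.4, 20.6 and 23.9 in 5xFAD and 12.3, 17.5 and 12.6 in WT (log2 difference 0.86, SE 0.43, limma unadjusted p = 0.0685). The junction chr6:102464157-102465603, between the adhesion genes Cntn3 and Chl1, had 14.7, 12.2 and 8.13 in 5xFAD and 7.48, 3.19 and 2.81 in WT. The gap between the lowest 5xFAD and the highest WT value is small there (log2 difference 1.27, SE 0.60, limma unadjusted p = 0.0541). At Zeb1, chr18:5633201-5641516, which shares its start with a Zeb1 junction, had 8.66, 5.88 and 6.69 in 5xFAD and 2.99, 2.96 and 2.10 in WT (log2 difference 1.13, SE 0.60, limma unadjusted p = 0.0805). On the lower side, chr9:46340839-46342051, between Sik3, a kinase, and Cadm1, an adhesion protein of synapses, had 27.7, 22.6 and 22.9 in 5xFAD and 37.8, 34.9 and 41.9 in WT (log2 difference -0.63, SE 0.36, limma unadjusted p = 0.108).

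The authors' deposited table has an adjusted p under 0.05 for 11 of the 230 (5 higher and 6 lower in 5xFAD), against 3.76% of all listed junctions (1.52% higher and 2.23% lower). The groups overlapped in 0 of the 11, and 6 of them were listed through 1 group alone. Of the 11, 5 had an unadjusted limma p under 0.05. One that did not was chr18:45663950-45666080, between Mcc and Kcnn2, with 6.93, 8.59 and 5.98 in 5xFAD and 14.2, 12.1 and 14.5 in WT, for which the authors' deposited table gives an adjusted p of 5.52e-07 and limma an unadjusted p of 0.118.

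Over all levels together, replicate spread was not wider for unnamed junctions. The median within-group SD of log2(signal + 1) was 0.56 in 5xFAD and 0.50 in WT, against 0.60 and 0.55 for named junctions in the same groups. At matched level the order varied: for mean signals of 10 to 25 it was 0.55 (5xFAD) and 0.49 (WT) over 38 unnamed junctions, against 0.60 and 0.54 over 1651 named ones, while below 4 it was 0.60 and 0.50 over 67 unnamed junctions, against 0.57 and 0.59 over 1126. At 25 and above it was 0.41 and 0.35 over 35 unnamed junctions, against 0.48 and 0.34. Without replicate 1, the shallowest library of each group, the median SD of unnamed junctions was 0.28 in 5xFAD and 0.34 in WT. An SD over fewer libraries has a lower median by itself, and the part of replicate 1 in the spread was not tested. Signals of 0 occurred for 22, 1 and 3 unnamed junctions in the 5xFAD libraries and for 23, 1 and 6 in the WT libraries, mostly in replicate 1.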

How the data were processed

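RNA was measured in 12 hippocampal samples, 3 per genotype under each title prefix, grouped by the genotype in the labels. Per the labels' protocols RNA was extracted with TRIzol, and the submitters' processing notes name DESeq (version not given in the sources used here) and mm9 as the build. Nothing read here names an aligner, a caller of junctions or a gene annotation. The authors deposited a signal per junction and library, and reads were recovered as whole multiples of the library's step (100% of values whole within 0.01). The authors also deposited a log2 ratio, a p-value and an adjusted p-value per junction, and FPKM per gene for the companion libraries. The FPKM table was used for markers and for genes of the loci named. Columns with no sample numbered 0.

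The members and the lists here were chosen with earlier results of these data known. Of the 2947 hosts, 2944 (99.9%) matched RefSeq by symbol, from another mouse assembly used for gene type and order only. Length is end minus start. Genotypes were compared with limma, whose variance prior followed the mean, on log2(signal + 1), in a 2-sided test over junctions with a mean signal of at least 0.5, which kept all 7025 and all 230, with Benjamini-Hochberg adjustment and a threshold of 0.05. Adding 1 shrinks the fold change of junctions with low signal. edgeR's quasi-likelihood test and DESeq2 were run on the recovered counts, which stand behind the signal. The tests were also run on simulated data, where each left most of the changes put in uncalled. Other alternatives were pseudocounts of 0.1 and 5, a minimum of 5 or none, quantile normalization, no trend, array weights, a replicate block and leaving out each library. Junctions named were every one called, the 10 most abundant, the 5 higher and 5 lower with the smallest p, the 3 longest and 3 shortest, and those of the 3 largest loci, with the nearest named hosts; the rest were named after their values were seen. Library pairs differed by 5.85 to 13.5 chi-square per degree of freedom, so none was a duplicate. The letters flanking the intervals, and exon status, were not analysed here. Software was R 4.3.3, limma 3.58.1, edgeR 4.0.16, DESeq2 1.42.0 and Python 3.11.15.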

Additional observations from a re-analysis of the deposited data

How the results depend on the processing

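The count of 0 unnamed junctions called held under all alternatives run. The count at an unadjusted p under 0.05, 15 in the main fit, was 5 with a mean signal of at least 5 and 8 with edgeR, and 7 to 19 when 1 library was left out. The median difference over unnamed junctions was -0.0808 with a mean signal of at least 5, 0.0215 with edgeR, 0.0496 with DESeq2, and -0.0868 to 0.0425 when 1 library was left out. Over named junctions it was -0.0328 with a pseudocount of 5, -0.0148 with quantile normalization, 0.0163 with edgeR, 0.0471 with DESeq2 and -0.0903 to -0.0100 when 1 library was left out. Without the most abundant unnamed junction the share of signal was 2.02% in 5xFAD and 1.997% in WT. On log2(signal + 5) the median SD was 0.36 in 5xFAD and 0.33 in WT for unnamed junctions, and 0.40 and 0.37 for named ones. When 1 library was left out it was 0.28 to 0.54 in 5xFAD and 0.34 to 0.46 in WT for unnamed junctions, and 0.33 to 0.58 in 5xFAD and 0.35 to 0.51 in WT for named ones. Over intervals of 100 kb or less the median length of named junctions was 9202 bases. The cause of these shifts was not tested.

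Same-numbered libraries of the 2 genotypes correlated in their deviations by 0.0676, 0.0884 and 0.0401, and libraries of different number by -0.113 to 0.0815. Whether same-numbered libraries share more than the number was not tested. With the replicate block 0 unnamed junctions were called and 15 had an unadjusted p under 0.05. Depth limits the weakest junctions most, since 3 reads are a signal of 2.60 in 5xFAD replicate 1.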
